A study of Mus musculus with 14 samples.

Results

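Branched-chain amino acid catabolism in the intervertebral disc was examined through 10 genes, chosen by name from the gene count table of 55487 genes. The members were the aminotransferases *Bcat1* and *Bcat2*, the branched-chain ketoacid dehydrogenase (BCKDH) subunits *Bckdha*, *Bckdhb* and *Dbt*, the kinase *Bckdk* and phosphatase *Ppm1k* that set the activity of this complex, and the downstream mitochondrial dehydrogenases *Ivd*, *Acadsb* and *Hibadh*. All 10 passed the filter on low counts, which kept 16915 genes. Members were picked by gene name, with earlier results of these data known.

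RNA was sequenced from caudal discs of 14 male mice in 4 groups, with 5 discs pooled per mouse and each library from a different mouse. The leptin receptor model comprised 3 db/db mice, homozygous for the *Lepr* db mutation, and 3 heterozygous db/+ littermates, all 3 months old and untreated. The mutation is germline, so every cell carried it. The induced model comprised 4 STZ-HFD C57BL/6J mice, which ate a high-fat diet for 4 to 6 weeks, received streptozotocin (STZ, a toxin of insulin-producing cells) once at 100 mg/kg and kept that diet until discs were taken 12 weeks later, and 4 wild-type C57BL/6J mice on control diet and vehicle (Con+Veh). Diet and STZ were given together, so their contributions cannot be told apart, and the C57BL/6 mice are described as 12 weeks old without the stage at which that age applied. The cohorts differed in genotype, age and treatment, so levels are set against the control of the same cohort.

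Leucine, isoleucine and valine are essential amino acids whose breakdown starts outside the liver in most tissues. The aminotransferases move their amino group to 2-oxoglutarate, *Bcat1* in the cytosol and *Bcat2* in mitochondria, and BCKDH then removes carbon dioxide from the resulting ketoacids in the committed step. *Bckdk* phosphorylates and inactivates the complex and *Ppm1k* reverses this. The later steps differ for each amino acid and end in acetyl-CoA, acetoacetate or propionyl-CoA. Raised circulating branched-chain amino acids are a known feature of obesity and insulin resistance.

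No member passed the test in either model after adjustment over all genes. By the study's rule, which asks for both an adjusted p under 0.05 and a log2 fold change of 1 or more in size, 0 of 10 members were called in db/db against db/+, where 1.66% of all genes tested were called, and 0 of 10 in STZ-HFD against Con+Veh, where 2.61% were. Without the minimum fold change the counts were again 0 of 10 in both comparisons, against 1.93% and 3.45% of all genes. The change in STZ-HFD minus the change in db/db was called for 0 of 10 members, against 1.77% of all genes under either rule. These tests were limma's voomWithQualityWeights with Benjamini-Hochberg adjustment. A list of 10 genes with no call is near the background at shares of this size.

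Before adjustment, 5 members had a p under 0.05 in db/db (50% of members, against 21.1% of all genes), 3 in STZ-HFD (30%, against 17.9%) and 4 in the difference between the models (40%, against 17.3%). With edgeR's quasi-likelihood test these counts were 3, 1 and 3, against 11.2%, 12.6% and 11.8% of all genes, and with DESeq2 also 3, 1 and 3, against 12.6%, 13.9% and 13%. The STZ-HFD count was thus at the background with both tools, and neither called a member in any comparison. Leaving out single libraries lowered these counts and the shares of all genes together. In db/db 5 became 1 without db/+ replicate 1 (against 18% of all genes). It became 3 without db/+ replicate 2 (16.8%) or db/db replicate 3 (17.7%). In STZ-HFD 3 became 0 without STZ-HFD replicate 3 (against 9.35% of all genes). It became 1 without STZ-HFD replicate 4 (14.9%), Con+Veh replicate 3 (8.55%) or Con+Veh replicate 4 (11.6%). With the mean log2 level of skeletal muscle markers (the muscle score) as a covariate the member counts were 2, 1 and 1, against 19%, 16% and 16.2% of all genes. The members did not share a direction. In db/db 4 of 10 had a positive log2 fold change, against 47.3% of all genes, and the median was -0.06, against -0.04 over all genes. In STZ-HFD 6 of 10 were positive, against 47.2%, with a median of 0.20 against -0.04. In the difference between the models 5 of 10 were positive, against 48.5%. The lowest adjusted p of any member was 0.0738 in db/db, 0.116 in STZ-HFD and 0.108 in the difference.

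**Figure D1:**
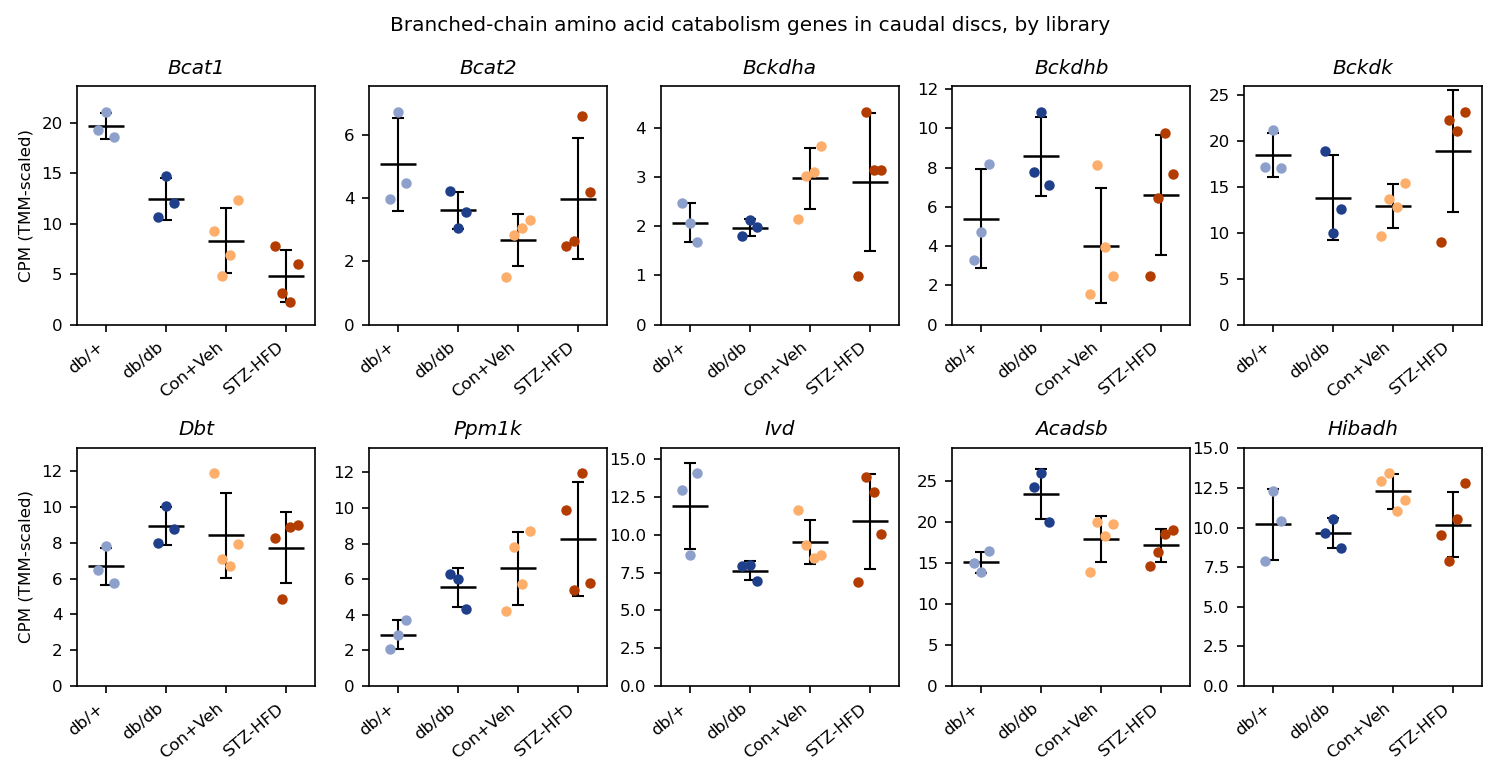
CPM (counts scaled to library size by TMM factors) of each gene in each library, by group; points are mice, the long bar is the group mean and the error bar the SD (n = 3 for db/+ and db/db, n = 4 for Con+Veh and STZ-HFD). The db/db points of *Acadsb* (19.9 to 25.9 CPM) lie above those of db/+ (13.9 to 16.4 CPM), while the STZ-HFD and Con+Veh points of every gene overlap.

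The intervals show how much change the libraries could have missed. The 95% confidence interval of the log2 fold change lay within -1 to 1 for 3 members in db/db (*Bckdha*, *Dbt* and *Hibadh*) and for 6 in STZ-HFD (the same genes with *Ppm1k*, *Ivd* and *Acadsb*). For the other members a change of 2-fold or more in at least one direction was inside the interval. In db/db the libraries of 5 members did not overlap with those of db/+, 3 above and 2 below, where 25.8% of all genes did not overlap (14.1% above and 11.7% below). In STZ-HFD the libraries of 0 of 10 members were separated from Con+Veh, where 4.71% of all genes were.

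Transamination is the reversible entry to the pathway. *Bcat1*, the cytosolic enzyme (ENSMUSG00000030268, chromosome 6 from 144993835 to 145076184 of GRCm38, minus strand), measured 19.3, 21.1 and 18.6 CPM (counts scaled to library size) in db/+ and 10.7, 14.8 and 12 CPM in db/db. The db/db libraries lay entirely below the db/+ libraries, with group means of 12.5 ± 2.09 and 19.7 ± 1.28 CPM (SD, n = 3 each). The log2 fold change was -0.67 (SE 0.28, adjusted p = 0.187), so the gene was not called. In Con+Veh it measured 9.27, 4.81, 6.89 and 12.3 CPM and in STZ-HFD 7.78, 3.12, 2.2 and 5.99 CPM. The STZ-HFD values reached lower but overlapped with the controls, and the log2 fold change of -1.06 (SE 0.36, adjusted p = 0.116) was not called. Without STZ-HFD replicate 3 it was -0.61, and without Con+Veh replicate 4 it was -0.77. *Bcat1* thus had the most negative estimate of the 10 genes in both models, and the log2 difference between the models, -0.39 (95% CI -1.35 to 0.58, adjusted p = 0.729), did not pass the test.

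Beside these values, the summed CPM of 7 cartilage markers was 5368 to 13876 in db/db against 13284 to 23263 in db/+, and 621 to 1317 in STZ-HFD against 1409 to 3317 in Con+Veh. Across the 14 libraries, log2 *Bcat1* and this sum had a Pearson r of 0.88, given as a description because the libraries form 4 groups that differ in both quantities. It was the highest r of any member with any marker list. *Bcat1* also had r of 0.80 with osteoblast, 0.78 with annulus and tendon, -0.69 with skeletal muscle and -0.69 with adipocyte markers. With the cartilage sum *Ppm1k* had r of -0.73, and the other members ranged from -0.29 (*Bckdha*) to 0.32 (*Bcat2*). The part of the cartilage markers in the *Bcat1* values was not tested. In pooled tissue of this kind, fewer cells of a type and less RNA per cell cannot be told apart.

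*Bcat2*, the mitochondrial aminotransferase that predominates in most tissues outside the brain (ENSMUSG00000030826, chromosome 7 from 45570153 to 45589711, plus strand), measured 3.97, 6.73 and 4.48 CPM in db/+ and 4.21, 3.06 and 3.56 CPM in db/db. It measured 1.49, 2.84, 3.05 and 3.3 CPM in Con+Veh and 2.48, 2.64, 6.6 and 4.18 CPM in STZ-HFD. The groups of each cohort overlapped, and the log2 fold changes of -0.50 (SE 0.30, adjusted p = 0.346) and 0.60 (SE 0.35, adjusted p = 0.394) were not called. The estimates pointed in opposite directions, with a log2 difference of 1.10 (95% CI 0.13 to 2.07, adjusted p = 0.222) that did not pass the adjustment. Of the exon bases of *Bcat2*, 15.9% lie under the antisense transcript 0610005C13Rik, and since the strand setting of the counting is not given in the sources used here, reads in that part cannot be assigned with certainty.

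The committed step is carried by BCKDH, whose E1 component is built from the alpha subunit *Bckdha* and the beta subunit *Bckdhb*, and whose E2 core is *Dbt*. *Bckdha* (ENSMUSG00000060376, chromosome 7 from 25629946 to 25658981, minus strand) measured 2.48, 2.06 and 1.67 CPM in db/+ and 1.79, 2.13 and 1.98 CPM in db/db. The Con+Veh values were 2.14, 3.01, 3.09 and 3.63 CPM and the STZ-HFD values 0.983, 4.33, 3.13 and 3.15 CPM. Apart from STZ-HFD replicate 1 the values of each cohort lay close together, and the log2 fold change was -0.05 in both models (SE 0.32 and 0.31, adjusted p = 0.946 and 0.956). These counts are uncertain, since 61.7% of the exon bases of *Bckdha* are shared with the opposite-strand gene *B3gnt8*.

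*Bckdhb* (ENSMUSG00000032263, chromosome 9 from 83925145 to 84124240, plus strand) had the highest coefficient of variation of any member and group. It measured 3.28, 4.74 and 8.16 CPM in db/+ and 7.77, 10.9 and 7.1 CPM in db/db, where a single db/+ library reached the db/db range. In Con+Veh it measured 1.55, 8.13, 3.94 and 2.49 CPM, a coefficient of variation of 72.2%, and in STZ-HFD 2.48, 6.45, 9.77 and 7.69 CPM. Con+Veh replicate 2 stood among the higher STZ-HFD values and STZ-HFD replicate 1 among the lower controls. The log2 fold changes were 0.76 in db/db (SE 0.36, adjusted p = 0.232) and 1.05 in STZ-HFD (SE 0.41, adjusted p = 0.179), and neither was called. Without Con+Veh replicate 2 the STZ-HFD value was 1.32 (adjusted p = 0.0918), and over all libraries left out in turn it lay between 0.78 and 1.32. In the estimated counts per transcript, which cover 25.2% as many reads for this gene as the gene counts, 61.8% to 70.3% of the total of each group fell on the non-coding processed transcript Bckdhb-203. Within single libraries that share ran from 0% to 83.1% in db/+, from 28.3% to 82.5% in db/db and from 42.3% to 100% in STZ-HFD, so the group totals hide a wide spread.

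*Dbt* (ENSMUSG00000000340, chromosome 3 from 116513070 to 116549981, plus strand) measured 6.51, 7.81 and 5.78 CPM in db/+ and 8, 10.1 and 8.76 CPM in db/db. Every db/db library was above every db/+ library, by a narrow margin, and the log2 fold change of 0.41 (SE 0.23, adjusted p = 0.320) was not called. The Con+Veh values were 11.9, 7.09, 6.7 and 7.96 CPM and the STZ-HFD values 8.26, 4.84, 8.87 and 8.99 CPM, and the fitted log2 change was 0.13 (SE 0.24, adjusted p = 0.824). The sign of the STZ-HFD estimate depended on the setting, since it was -0.11 with edgeR's quasi-likelihood test and -0.10 with DESeq2. It was also negative with voom without quality weights. The main fit weighted Con+Veh replicates 3 and 4 at 3.05 and 1.81 and replicates 1 and 2 at 0.275 and 0.462. Unweighted means were 8.42 CPM in Con+Veh and 7.74 CPM in STZ-HFD.

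The kinase and the phosphatase act on the E1 alpha subunit in opposite ways. *Bckdk* (ENSMUSG00000030802, chromosome 7 from 127904082 to 127910221, plus strand) measured 17.1, 21.2 and 17 CPM in db/+ and 18.9, 9.91 and 12.6 CPM in db/db. A single db/db library reached the db/+ range, and the log2 fold change of -0.49 (SE 0.25, adjusted p = 0.279) was not called. In Con+Veh it measured 9.62, 13.7, 12.8 and 15.4 CPM, and in STZ-HFD 9, 22.2, 21.1 and 23.1 CPM. In 3 of 4 STZ-HFD mice *Bckdk* stood above every control and in replicate 1 below every control. The log2 fold change was 0.62 (SE 0.24, adjusted p = 0.175), and 0.72 (adjusted p = 0.0748) without STZ-HFD replicate 1.

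The summed CPM of 10 skeletal muscle markers had the same split within STZ-HFD, with 21268, 23022 and 21213 in replicates 2, 3 and 4 and 7547 in replicate 1. In db/db it was 5108 in replicate 1, where *Bckdk* was high, and 3077 and 3164 in the other libraries. In db/+ the order was also shared. The sums were 9617, 8157 and 4727 in replicates 2, 1 and 3, beside *Bckdk* at 21.2, 17.1 and 17 CPM. The last pair of *Bckdk* values was level although the sums differed. Con+Veh did not have this order, since its replicate 1 had the highest sum (11118, others from 7943) with the lowest *Bckdk*. Across the 14 libraries the Pearson r of log2 *Bckdk* with the muscle sum was 0.54, as a description. With the muscle score (the mean log2 CPM of these markers, not their sum) as a covariate the log2 fold change of *Bckdk* was -0.01 in STZ-HFD and -0.04 in db/db. The difference between the models, 1.11 without that covariate (95% CI 0.37 to 1.85, adjusted p = 0.108), was then 0.03 (adjusted p = 0.983). The score and the group differ together in STZ-HFD, and the part of muscle in the *Bckdk* values cannot be told apart from that of the treatment.

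*Ppm1k*, the phosphatase (ENSMUSG00000037826, chromosome 6 from 57506502 to 57535468, minus strand), measured 2.09, 2.85 and 3.7 CPM in db/+ and 6.31, 5.99 and 4.31 CPM in db/db. All db/db values lay above all db/+ values, with means of 5.54 ± 1.07 and 2.88 ± 0.808 CPM (SD, n = 3 each). It had the highest log2 fold change of the 10 genes in db/db, 0.95 (SE 0.34, 95% CI 0.23 to 1.67), and was not called at an adjusted p of 0.131. The Con+Veh values were 4.2, 7.82, 5.72 and 8.72 CPM and the STZ-HFD values 9.91, 5.39, 12 and 5.82 CPM. These groups overlapped and the log2 fold change was 0.26 (SE 0.30, adjusted p = 0.711). The difference between the models was -0.69 (95% CI -1.66 to 0.27, adjusted p = 0.474), and did not pass the test.

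The ratio of *Bckdk* to *Ppm1k* counts within a library cancels the scaling of that library. Its absolute size depends on transcript length, so groups are compared and not the genes. The log2 ratio was 3.01, 2.88 and 2.19 in db/+ and 1.58, 0.72 and 1.54 in db/db. The db/db ratios all lay below the db/+ ratios, with means of 1.28 ± 0.48 and 2.69 ± 0.44 (SD, n = 3 each). In Con+Veh the log2 ratio was 1.19, 0.80, 1.14 and 0.81, and in STZ-HFD -0.14, 2.03, 0.81 and 1.98. The STZ-HFD values spread on both sides of the controls, with means of 1.17 ± 1.04 and 0.99 ± 0.21 (SD, n = 4 each). Of the group means that of db/+ was the highest, and the db/db mean lay above those of Con+Veh and STZ-HFD. The cohorts differed in genotype, age and treatment, so this order does not show whether db/+ or db/db was the unusual group. In the estimated transcript counts the means were 0.62 in db/db, 2.20 in db/+, 0.26 in Con+Veh and 0.86 in STZ-HFD. The order of db/db and STZ-HFD was thus reversed there. All genes of the GC content of *Bckdk* had a median db/db log2 fold change of -0.24 and those of the GC content of *Ppm1k* 0.36, which have the signs of the shift in the ratio. With the GC trend removed, as given below, the db/db estimates of *Bckdk* and *Ppm1k* kept their signs and were smaller in size. The ratio itself was not fitted in that way, and the part of GC content in it was not tested. These ratios were chosen as pairs of opposing or partnered enzymes and are given without a test. No background of other gene pairs was set beside them, and 25.8% of single genes did not overlap between db/db and db/+.

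**Figure D2:**
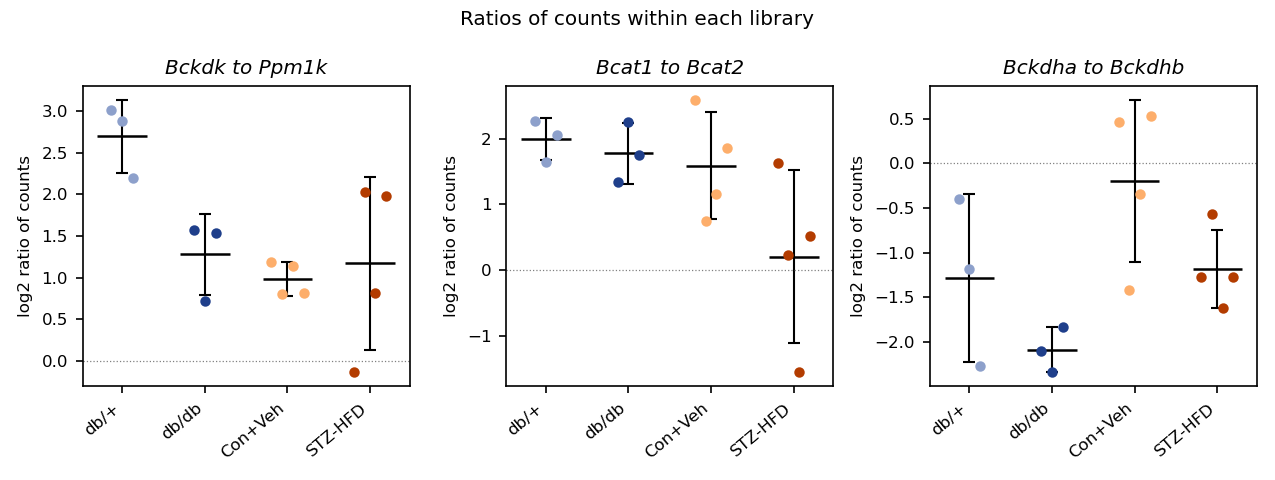
Log2 ratios of counts within each library (prior count 2) for *Bckdk* to *Ppm1k*, *Bcat1* to *Bcat2* and *Bckdha* to *Bckdhb*; points are mice, long bars are means and error bars the SD. The first ratio is 0.72 to 1.58 in db/db and 2.19 to 3.01 in db/+, whereas the STZ-HFD points of *Bcat1* to *Bcat2* run from -1.56 to 1.62.

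The aminotransferase ratio, *Bcat1* to *Bcat2* on the log2 scale, was 1.99 ± 0.32 in db/+ and 1.78 ± 0.46 in db/db (SD, n = 3 each). It was 1.59 ± 0.81 in Con+Veh and 0.20 ± 1.32 in STZ-HFD (SD, n = 4 each), where replicate 3 fell to -1.56 and replicate 1 was 1.62, inside the control range of 0.75 to 2.59. The E1 subunit ratio, *Bckdha* to *Bckdhb*, was -1.28 ± 0.94 in db/+, -2.09 ± 0.25 in db/db, -0.20 ± 0.91 in Con+Veh and -1.18 ± 0.44 in STZ-HFD. The groups overlapped in both ratios. The E1 ratio carries the uncertainty of the *Bckdha* counts.

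Beyond BCKDH the chains separate, and the members hold 1 enzyme for each amino acid. *Ivd*, isovaleryl-CoA dehydrogenase of the leucine branch (ENSMUSG00000027332, chromosome 2 from 118861954 to 118882909, plus strand), measured 13, 8.66 and 14.1 CPM in db/+ and 7.94, 8.04 and 6.93 CPM in db/db. The db/db libraries lay below all db/+ libraries, though db/+ replicate 2 was close to them, and the log2 fold change of -0.58 (SE 0.23, adjusted p = 0.163) was not called. In Con+Veh *Ivd* measured 11.7, 9.31, 8.49 and 8.67 CPM and in STZ-HFD 6.88, 13.9, 12.8 and 10.1 CPM. As for *Bckdk*, STZ-HFD replicate 1 was below every control, and the log2 fold change was 0.35 (SE 0.23, adjusted p = 0.451). The difference between the models was 0.94 (95% CI 0.25 to 1.62, adjusted p = 0.144).

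*Acadsb*, the short/branched-chain acyl-CoA dehydrogenase of the isoleucine branch (ENSMUSG00000030861, chromosome 7 from 131410601 to 131448944, plus strand), came nearest to the threshold. It measured 15, 13.9 and 16.4 CPM in db/+ and 24.3, 25.9 and 19.9 CPM in db/db. Every db/db library was above every db/+ library, with means of 23.4 ± 3.1 and 15.1 ± 1.28 CPM (SD, n = 3 each). The log2 fold change was 0.64 (SE 0.18, 95% CI 0.25 to 1.03, adjusted p = 0.0738), and the adjusted p over the other settings ranged from 0.0518 to 0.761. In Con+Veh it measured 13.8, 20, 18.2 and 19.7 CPM and in STZ-HFD 14.7, 16.3, 18.5 and 19 CPM. Against Con+Veh its fitted change was -0.04 on the log2 scale, and the interval ran from -0.40 to 0.32 (adjusted p = 0.927). The difference between the models was -0.68 (95% CI -1.21 to -0.15, adjusted p = 0.169), so a different response of *Acadsb* was not established.

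*Hibadh*, 3-hydroxyisobutyrate dehydrogenase of the valine branch (ENSMUSG00000029776, chromosome 6 from 52546228 to 52640389, minus strand), had intervals that held 0 in both models. It measured 7.86, 12.3 and 10.4 CPM in db/+ and 9.68, 10.6 and 8.7 CPM in db/db, and all db/db values lay within the db/+ range. The Con+Veh values were 13, 13.4, 11 and 11.8 CPM and the STZ-HFD values 9.55, 7.9, 10.5 and 12.8 CPM. The log2 fold changes were -0.08 (95% CI -0.53 to 0.38, adjusted p = 0.875) and -0.11 (95% CI -0.55 to 0.34, adjusted p = 0.839).

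**Figure D3:**
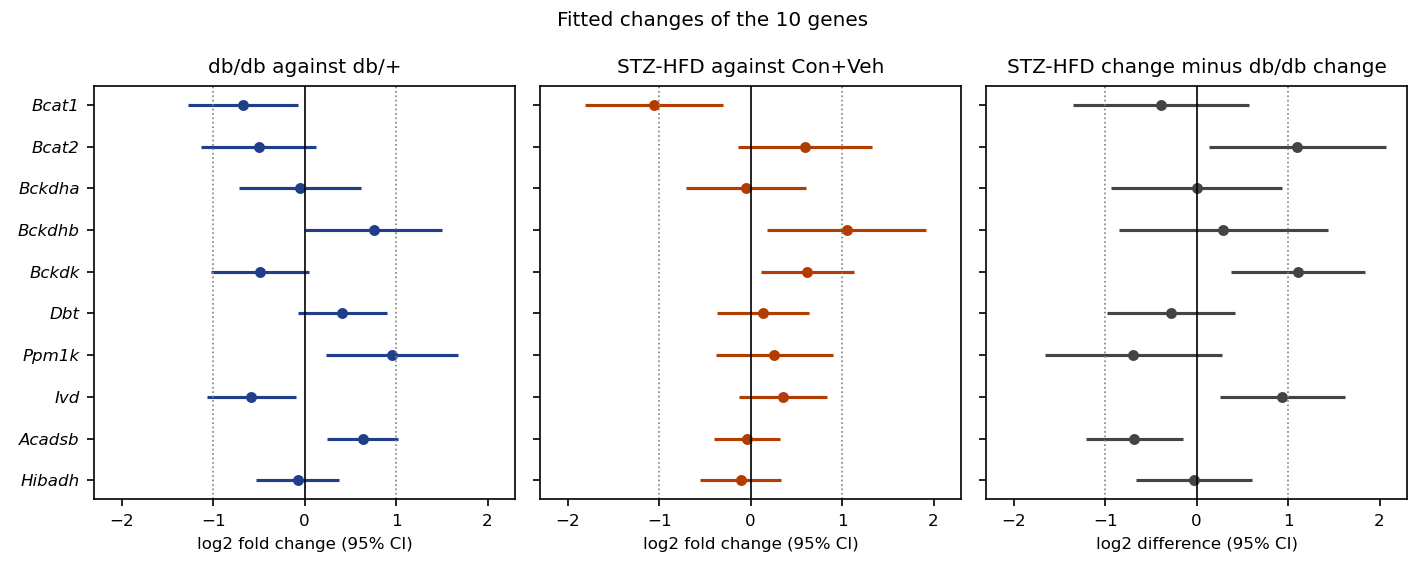
Fitted log2 fold changes (points) with 95% confidence intervals (lines) of the 10 genes in db/db against db/+, in STZ-HFD against Con+Veh and for the STZ-HFD change minus the db/db change; dotted lines mark -1 and 1. *Bcat1* is leftmost in both models, at -0.67 and -1.06, and 0 of 10 genes is called in any panel.

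Levels can be ordered within a group when CPM is divided by exon length in kilobases. That length joins all annotated exons of a gene, also those of transcripts that keep introns, so the order depends on this choice. For *Hibadh* in db/+, the coding transcript Hibadh-201 held 46.9% of the estimated counts, and transcripts that keep introns held the rest. The *Bckdha* level also carries its overlap with *B3gnt8*. *Bckdk* was highest in db/+ at 4.99 ± 0.642 CPM per kb (SD, n = 3), clear of *Bckdhb* at 2.99 ± 1.39, and *Ppm1k* was lowest at 0.478 ± 0.134, clear of *Hibadh* at 1 ± 0.22. The genes between these ends overlapped with their neighbours. In db/db *Bckdhb* was first at 4.75 ± 1.11 CPM per kb and overlapped with *Bckdk* at 3.73 ± 1.25, and *Ppm1k*, at 0.92 ± 0.178, overlapped with *Bcat2* and *Hibadh*. In Con+Veh and STZ-HFD *Bckdk* was first at 3.48 ± 0.655 and 5.1 ± 1.79 CPM per kb (SD, n = 4), and every gene overlapped with the next in order. *Bcat1* had rank 4 of 10 in db/+ at 2.11 ± 0.137 CPM per kb, rank 9 in Con+Veh at 0.892 ± 0.345 and rank 10 in STZ-HFD at 0.512 ± 0.276.

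The 10 genes did not vary as a block between mice. Over the 45 pairs, the median Pearson r of log2 CPM across the 14 libraries was 0.06, from -0.68 for *Bcat1* with *Ppm1k* to 0.70 for *Bcat2* with *Bckdk*. With group means removed the median was 0.19, and the highest value, 0.77, was between *Bckdha* and *Bckdk*. These values share library scaling and depth and carry no test. The genes whose log2 CPM was most like the mean z-score of the members were *Trappc1* (r = 0.84), *Mkrn2* (r = 0.83) and the insulin receptor *Insr* (r = 0.83), over 14 libraries and 13586 protein-coding candidates. As the highest of so many candidates over so few libraries, these values were selected to be large. They were not set against chance, and a link to the members is not established.

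Transcript GC content moved with the db/db estimates. Over 16899 genes, the log2 fold change in db/db had a Spearman rho of -0.43 with GC content, given as a description, and in STZ-HFD -0.08. In db/db, genes of the GC bins of *Ppm1k* (39.9% GC), *Dbt* (42.1%) and *Acadsb* (42.7%) had median log2 fold changes of 0.36, 0.28 and 0.24, while those of the bins of *Ivd* (51.1%), *Bckdk* (52.7%) and *Bcat2* (54.3%) had -0.16, -0.24 and -0.31. These members had estimates of the same sign as their bins. *Bckdhb* (50.3%, bin median -0.09, own value 0.76), *Bcat1* (47.2%, bin median 0.06, own value -0.67) and *Hibadh* (39.5%, bin median 0.36, own value -0.08) had the opposite sign. With the GC trend removed, the db/db log2 fold change was 0.59 for *Ppm1k* (adjusted p = 0.396), 0.38 for *Acadsb* (adjusted p = 0.298), 0.14 for *Dbt*, -0.77 for *Bcat1* and 0.81 for *Bckdhb*. It was -0.48 for *Ivd*, -0.33 for *Bckdk*, -0.24 for *Bcat2*, 0.37 for *Bckdha* (adjusted p = 0.589) and -0.44 for *Hibadh* (adjusted p = 0.311), the latter pair from -0.05 and -0.08.

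**Figure D4:**
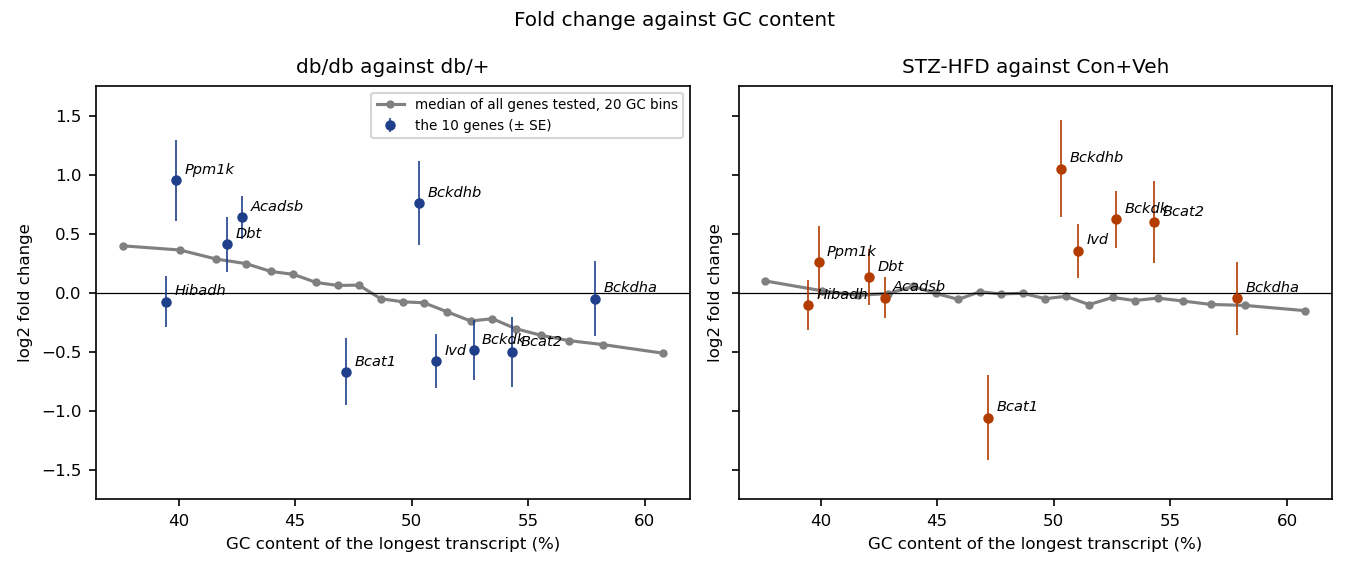
Log2 fold change against the GC content (%) of the longest transcript, for the medians of all genes tested in 20 GC bins (grey line) and the 10 genes (points ± SE). In db/db the grey line falls from low to high GC (rho -0.43 over genes) and *Ppm1k*, *Dbt*, *Acadsb*, *Ivd*, *Bckdk*, *Bcat2* and *Bckdha* lie on the same side of 0 as the line, whereas in STZ-HFD the line is nearly flat (rho -0.08).

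The wider pathway was described with 26 further genes of transport, later steps and propionyl-CoA and cobalamin handling, all of them tested. In db/db 0 of 26 were called, with a median log2 fold change of 0.15 and 15 of 26 positive. The lowest adjusted p belonged to *Mmut*, methylmalonyl-CoA mutase, which measured 8.56, 10.2 and 12 CPM in db/+ and 21.4, 20.4 and 22.8 CPM in db/db. Its libraries were well separated, with a log2 fold change of 1.08 (SE 0.31, adjusted p = 0.0738). *Aldh6a1*, methylmalonate semialdehyde dehydrogenase of the valine branch, measured 15.1, 23.3 and 25.5 CPM in db/+ and 48.2, 49.4 and 58.7 CPM in db/db, with a log2 fold change of 1.32 (SE 0.42, adjusted p = 0.0992). *Mmaa*, which serves the cobalamin cofactor of *Mmut*, had a negative estimate, with 4.75, 5.19 and 5.55 CPM in db/+ and 3.63, 2.37 and 3.26 CPM in db/db, with a log2 fold change of -0.77 (SE 0.23, adjusted p = 0.0776).

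In STZ-HFD 2 of 26 wider genes were called, both higher, against 1.3% of all genes called higher. *Acad8*, isobutyryl-CoA dehydrogenase of the valine branch, measured 4.64, 8.17, 5.77 and 3.74 CPM in Con+Veh and 10.3, 8.96, 14.4 and 10.9 CPM in STZ-HFD. Every STZ-HFD library was above every control, with a log2 fold change of 1.15 (SE 0.29, adjusted p = 0.0358). *Mmadhc*, another cobalamin-handling gene, measured 4.74, 17.9, 3.56 and 5.69 CPM in Con+Veh and 8.73, 7, 19.5 and 14.5 CPM in STZ-HFD. Here Con+Veh replicate 2 exceeded 3 of the 4 STZ-HFD libraries, and the log2 fold change was 1.42 (SE 0.37, adjusted p = 0.0418). Neither call was stable, since edgeR's quasi-likelihood test gave adjusted p values of 0.194 and 0.563, the range over all settings was 0.0304 to 0.644 for *Acad8* and 0.0304 to 0.892 for *Mmadhc*, and leaving out any of Con+Veh replicates 3 and 4 or STZ-HFD replicates 3 and 4 lost both calls. The *Mmadhc* call was also lost without any 1 of the db/+ or db/db libraries. *Acat1*, the mitochondrial thiolase that closes the isoleucine branch, measured 22.4, 22.4, 26.3 and 15.1 CPM in Con+Veh and 22.3, 38, 37.2 and 35.7 CPM in STZ-HFD, where the fitted change was, on the log2 scale, 0.70 (SE 0.22, adjusted p = 0.0938).

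Other mitochondrial lists give the setting of these values in STZ-HFD. Of 16 fatty acid oxidation genes 15 were tested, all 15 with a positive log2 fold change and a median of 0.85. Of these, 4 were called, all higher, against 1.3% of all genes called higher, among them *Decr1* (1.55, adjusted p = 0.00458), *Acadl* (1.83, adjusted p = 0.00658) and *Acadm* (1.16, adjusted p = 0.0139), which act in the breakdown of unsaturated, long-chain and medium-chain fatty acyl-CoA. In the list of 13 related 2-oxoacid dehydrogenase genes, with a median of 0.73, *Pdk4*, the kinase that inactivates pyruvate dehydrogenase (2.80, adjusted p = 7.43e-05), and *Ogdh*, the E1 subunit for 2-oxoglutarate (1.07, adjusted p = 0.0154), were called. Of 15 mitochondrial content genes, with a median of 0.61, *Slc25a4* (1.85, adjusted p = 0.00911) and *Vdac1* (1.22, adjusted p = 0.0462) were called. In db/db 0 genes of these lists were called, and the medians were 0.15, 0.04 and 0.33.

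Except for *Pdk4*, whose STZ-HFD call was lost in 1 of 16 settings (adjusted p = 0.0657 with the adipocyte score) and with 0 of 14 libraries left out, these calls depended on the setting. *Decr1* and *Acadl* lost theirs in 4 of 16 settings each, *Acadm* in 7, *Slc25a4* in 6, *Ogdh* in 8 and *Vdac1* in 12, with adjusted p up to 0.312, 0.468, 0.569, 0.385, 0.472 and 0.751. All of these 6 calls were lost without Con+Veh replicate 3 or 4 or STZ-HFD replicate 3. *Ogdh*, *Slc25a4* and *Vdac1* also lost theirs without STZ-HFD replicate 4, and *Vdac1* without any 1 of db/+ replicates 1 and 3 and the db/db libraries. All fold changes stayed positive in these settings.

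*Acadsb*, whose enzyme is a relative of those encoded by *Acadl* and *Acadm*, had a log2 fold change of -0.04 in STZ-HFD beside 1.83 and 1.16, and *Bckdk* had 0.62 beside 2.80 for *Pdk4*. These differences between genes were not tested. With the muscle score as a covariate the STZ-HFD median of the fatty acid oxidation list was 0.33, with 10 of 15 positive and 0 called, and the median of the 10 members was 0.03. The muscle markers were detected in every library, 10 of 10. The summed CPM of 8 adipocyte markers was 3950 to 7717 in STZ-HFD against 2103 to 4682 in Con+Veh, and 1213 to 1403 in db/db against 709 to 3905 in db/+. The adipocyte score is the mean log2 CPM of these markers, not their sum. With it as a covariate 0 members had an unadjusted p under 0.05 in either model, against 7.48% and 7.84% of all genes, and 4 did for the difference between the models, against 13.4%.

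**Figure D5:**
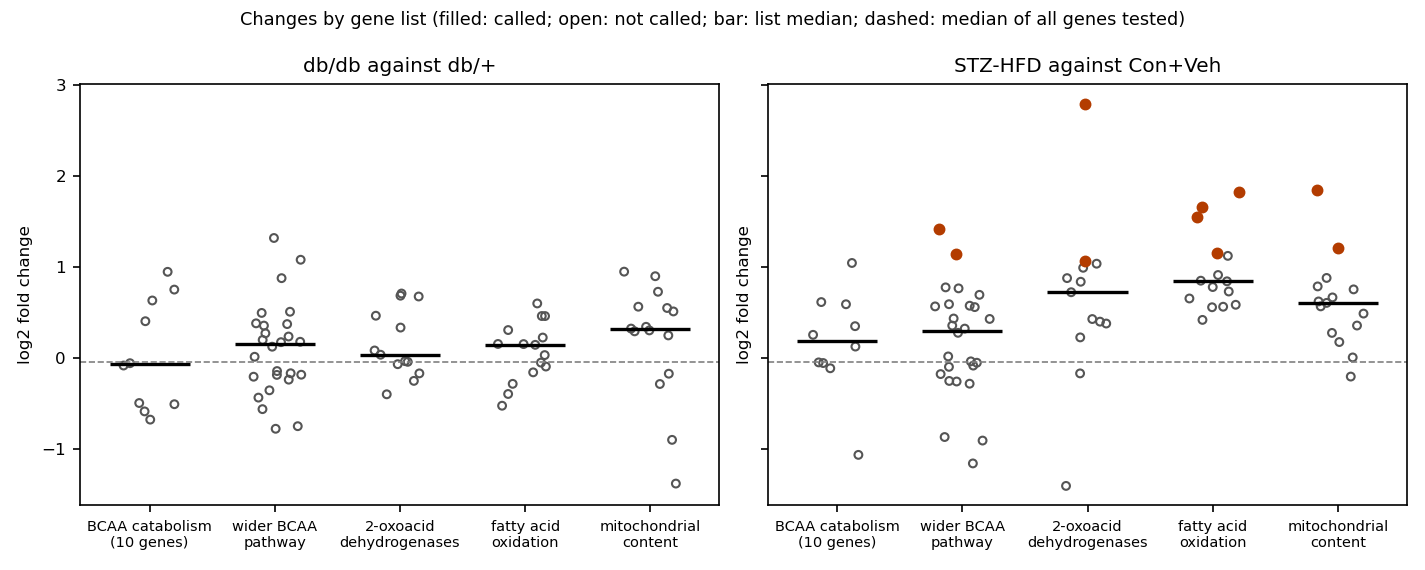
Log2 fold changes by gene list in db/db against db/+ and STZ-HFD against Con+Veh; each point is a gene, filled points are called, bars are list medians and the dashed line is the median of all genes tested (-0.04 in both). The 10 members have medians of -0.06 and 0.20, while the fatty acid oxidation genes have 0.15 and 0.85 and all lie above 0 in STZ-HFD.

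The libraries held 16076908 to 58943169 counts, of which ribosomal RNA took 28.1% to 60.2%, and 3 counts corresponded to 0.0429 to 0.163 CPM, a floor for counting error only that every member exceeded in every library. The lowest member count was 25, for *Bckdha* in STZ-HFD replicate 1. That library had the lowest depth and was the lowest of its group for 6 of 10 members, and Con+Veh replicate 1, with the lowest quality weight (0.275), for 6 of 10 in its group. Counts on the targeted gene *Lepr* were 309 to 534 in db/db and 374 to 472 in db/+, so its total count did not separate the groups. Of 8 notochord and nucleus pulposus markers, 6 were detected in every library of the group, in each of the 4 groups. *Shh* was at 0 in all db/+ libraries and *Noto* in all db/db libraries. The summed CPM of the 8 markers was 47.1 to 450 in db/+ and 46.3 to 77.7 in db/db. It was 53 to 463 in Con+Veh and 134 to 337 in STZ-HFD.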

How the data were processed

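Discs were analysed as libraries of 14 mice, grouped by genotype and treatment per the labels. The authors aligned reads with STAR 2.7.9a1 to Ensembl release 101 (GRCm38) and deposited raw counts per gene from featureCounts 2.0.32, without normalization. They also deposited estimated counts per transcript from Salmon 1.5.23, which were summed per gene and rounded for an alternative and otherwise used for transcript shares. Versions are as the submitters' processing notes print them. The double-stranded cDNA was amplified before sequencing, so counts include amplification noise, and the strand setting of the counting is not given in the sources used here.

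Gene counts were scaled by TMM factors (edgeR 4.0.16, R 4.3.3). Genes with CPM above 1 in at least 3 libraries were tested with limma 3.58.1 (voomWithQualityWeights, a mean per group over all 14 libraries, contrasts within each cohort and their difference). The study's methods name voomWithQualityWeights, while the joint fit, the CPM limit and the difference contrast were set here. P-values were adjusted by Benjamini-Hochberg over all genes tested. Calls required an adjusted p below 0.05 together with a log2 fold change of 1 or more in either direction. Ratios and log2 CPM used a prior count of 2. Positions, exon lengths and GC content came from GENCODE M21 (GRCm38), which matched 16904 of the genes tested. Replicates of a group all differed by more than sampling noise over 18 pairs. The labels give 1 batch for all libraries.

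Named were all 10 members, wider pathway genes that were called or had the 3 lowest adjusted p in a model, called genes of the related lists (at most 3 per list and model), the 3 genes most like the members' mean z-score, and *Lepr*. The members and lists were chosen with earlier results of these data known. Alternatives were DESeq2 1.42.0, edgeR's quasi-likelihood test, RLE size factors, voom without weights, a replicate block, other low-count filters, separate fits of each model, Salmon gene totals, muscle or adipocyte scores as covariates, no minimum fold, removal of the GC trend or of ribosomal RNA genes, leaving out each library, and leaving out both libraries whose names end in RIP. Leaving out both libraries of the lowest weight was added after seeing the data.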

Additional observations from a re-analysis of the deposited data

Results flagged for a closer look

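Of 52 sets of 4 libraries examined for a mouse far from the others, 7 held one, where chance gives about 1 in 20 sets. The measure is the gap of the extreme library to its neighbour as a share of the range of the group. In STZ-HFD, replicate 1 stood apart for *Bckdk* (9 CPM against 21.1 CPM or more in the others, gap 0.854) and *Acat1* (22.3 CPM against 35.7 CPM or more, gap 0.850). In Con+Veh, replicate 2 stood apart for *Aldh6a1* (92.2 CPM against 22.9 CPM or less, gap 0.899), *Mmut* (23.4 CPM against 11.1 CPM or less, gap 0.925), *Mmadhc* (17.9 CPM against 5.69 CPM or less, gap 0.852) and *Vdac1* (416 CPM against 149 CPM or less, gap 0.916). For *Acadm*, Con+Veh replicate 4 stood apart (11.2 CPM against 14.2 CPM or more, gap 0.859). Genes of 1 library are not independent of each other, so these are not separate events.

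The response of *Pdk4*, the kinase that inactivates pyruvate dehydrogenase, differed between the models. It measured 7.04, 9.54 and 5.42 CPM in db/+ and 9.14, 10.2 and 17.4 CPM in db/db, and 20.3, 13, 20.2 and 10.9 CPM in Con+Veh and 81.7, 169, 121 and 92.2 CPM in STZ-HFD. The groups overlapped in the first cohort and were far apart in the second. The STZ-HFD change minus the db/db change was 2.11 on the log2 scale (SE 0.43, adjusted p = 0.0251 with limma, all 4 STZ-HFD mice above all 4 controls). It was 2.12 with edgeR's quasi-likelihood test, where the adjusted p was 0.137, and 1.74 (adjusted p = 0.215) with the muscle score as a covariate. Over all settings the adjusted p ranged from 0.00520 to 0.215, and over the libraries left out in turn from 0.0202 to 0.0837, with the call lost without db/+ replicate 1 or 2, db/db replicate 1, Con+Veh replicate 3 or 4 or STZ-HFD replicate 3. The corresponding difference for *Bckdk* was 1.11 and was not called.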

How the results depend on the processing

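The count of members called was 0 in every alternative and with each library left out, in both models and in their difference. Of 890 member fold changes under an alternative, 844 kept their sign and 46 reversed, and the causes were not tested. The 844 include the setting with no minimum fold change, which uses the main fit and so could not reverse a sign. For contrasts within a cohort, they also include fits without a library of the other cohort. In STZ-HFD *Dbt* became -0.11 (edgeR), -0.10 (DESeq2), -0.12 (voom without weights), -0.50 (Salmon) and -0.077 (without both libraries named RIP). *Bckdha* became 0.27 (muscle score) and 0.37 (GC trend removed) in db/db, 0.12 (no filter), 0.12 (Salmon), 0.00049 (GC trend removed) and 0.034 (without both libraries of the lowest weight) in STZ-HFD, and -0.033 (voom without weights), -0.68 (muscle score), -0.37 (GC trend removed), -0.025 (without ribosomal RNA) and -0.057 (without both RIP libraries) for the difference. With Salmon totals *Bcat2* became -0.63 in STZ-HFD and -0.34 for the difference, and *Mmadhc* became -0.94 in STZ-HFD. *Hibadh* became 0.12 (Salmon), 0.00091 (adipocyte score) and 0.32 (GC trend removed) and *Dbt* 0.011 (GC trend removed) for the difference. With the muscle score *Bckdk* became -0.0068 and *Acadsb* 0.011 in STZ-HFD.

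Leaving out each library gave -0.19 to 0.11 (db/db), -0.13 to 0.071 (STZ-HFD) and -0.15 to 0.15 (difference) for *Bckdha*, -0.21 to 0.076, -0.30 to 0.0099 and -0.22 to 0.11 for *Hibadh*, -0.041 to 0.27 for *Dbt* and -0.083 to 0.43 for *Ppm1k* in STZ-HFD, and -0.74 to 0.059 for *Bcat1* and -0.033 to 0.59 for *Bckdhb* in the difference.

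Of the wider pathway, 2 genes called in STZ-HFD became 0 under edgeR, DESeq2, voom without weights, filterByExpr, no filter, the replicate block, Salmon totals, muscle or adipocyte scores, no ribosomal RNA and no RIP libraries, 1 with each model fitted alone, and 0 to 3 over libraries left out. In db/db, 0 became 2 with each model alone, the replicate block and no RIP libraries, 1 (*Mmaa*, -1.04, adjusted p = 0.0453 with limma) with the GC trend removed, and 0 to 1 over libraries left out. Over all genes, 281 calls in db/db and 441 in STZ-HFD (208 and 220 higher) became 0 and 29 (6 higher) with edgeR and 212 and 277 (160 and 123 higher) with DESeq2, and 9 and 19 with voom without weights. The calls changed with the libraries used. The db/db calls were 143, 21 and 69 without db/+ replicates 1, 2 and 3 and 37, 58 and 58 without db/db replicates 1, 2 and 3. Every library left out of that cohort thus lowered the count. The STZ-HFD calls fell to 17 and 18 without Con+Veh replicates 3 and 4 and to 18 and 164 without STZ-HFD replicates 3 and 4. They rose to 550 and 642 without Con+Veh replicates 1 and 2 and to 517 and 500 without STZ-HFD replicates 1 and 2. The background shares are therefore as uncertain. Without a filter on low counts the median log2 fold change of all genes shifted to -0.18, -0.36 and -0.30 (db/db, STZ-HFD, difference).

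Replicate numbers mark different mice. Deviations of same-numbered libraries correlated at 0.19, -0.28 and -0.19 (db/db cohort) and at -0.04, -0.26, -0.08 and -0.06 (STZ-HFD cohort). Differently numbered libraries were not compared in this way, so these values do not decide whether the numbers pair any mice. With the replicate block 0 members were called in either model.

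With Salmon totals the mean log2 ratio of *Bckdk* to *Ppm1k* moved to 2.20 (db/+), 0.62 (db/db) and 0.26 (Con+Veh), of *Bcat1* to *Bcat2* to 0.99 and 1.05 (db/+, db/db), and of *Bckdha* to *Bckdhb* to 0.24, -1.10, 1.35 and 0.50 (db/+, db/db, Con+Veh, STZ-HFD). Those totals hold 5.14% (*Dbt*) to 60.3% (*Bckdha*) as many counts as the gene counts of a member.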
